A study of Mus musculus with 12 samples.

Results

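Cps1 encodes carbamoyl phosphate synthetase 1, the mitochondrial enzyme that joins ammonia and bicarbonate in the first committed step of the urea cycle. In the liver this cycle disposes of the nitrogen released when amino acids are burned or turned into glucose, as happens in fasting. CREB is a transcription factor that binds the cAMP response element, and glucagon, which rises in fasting, leads through cAMP and protein kinase A to its phosphorylation. The Cps1 gene is known for a distal enhancer upstream of its start that responds to cAMP and glucocorticoids. The CREB sites described here are all peaks of the deposited lists that lie on chromosome 1 between 66950000 and 67150000 (mm8), the region of Cps1. There were 2 such sites, out of 423 on chromosome 1 and 7547 in the whole genome.

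CREB ChIP-seq was performed on whole livers of male C57BL/6J mice, labeled C57/Bl6, aged between 8 and 12 weeks. Livers of 5 mice were taken after a 24 h fast at ZT3 (hours after lights on), and livers of 5 mice were taken after the same fast and 2 h of access to food, at ZT5. Feeding and the hour of harvest therefore cannot be told apart. The antibody recognized CREB whether or not it was phosphorylated, and whole liver mixes hepatocytes with the other cells of the organ. The authors pooled the reads of each condition before they called peaks, so single mice have no value in the lists. They kept a peak only when it was called again in every pool of 4 of the 5 livers, so a listed peak did not depend on 1 mouse. The height of a peak is its largest stack of reads, given in RPM, that is, scaled to the number of reads in the pool.

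Both Cps1 sites were called in the fasted livers, and 1 of them was also called in the re-fed livers. The first site, on chromosome 1 from 67049731 to 67049864, was in both lists. The second site lies from 67051135 to 67051245 and was in the fasted list only. Over all 7547 merged sites, 90.6% had a fasted call, 71.0% a re-fed call and 61.5% both, so a fasted call at both Cps1 sites and a re-fed call at 1 of them are near the background of the lists. A call missing from 1 list is not a test of a difference between the conditions. The study tested its sites for a difference across the mice, and neither Cps1 site is among those it lists as differing.

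**Figure D1:**
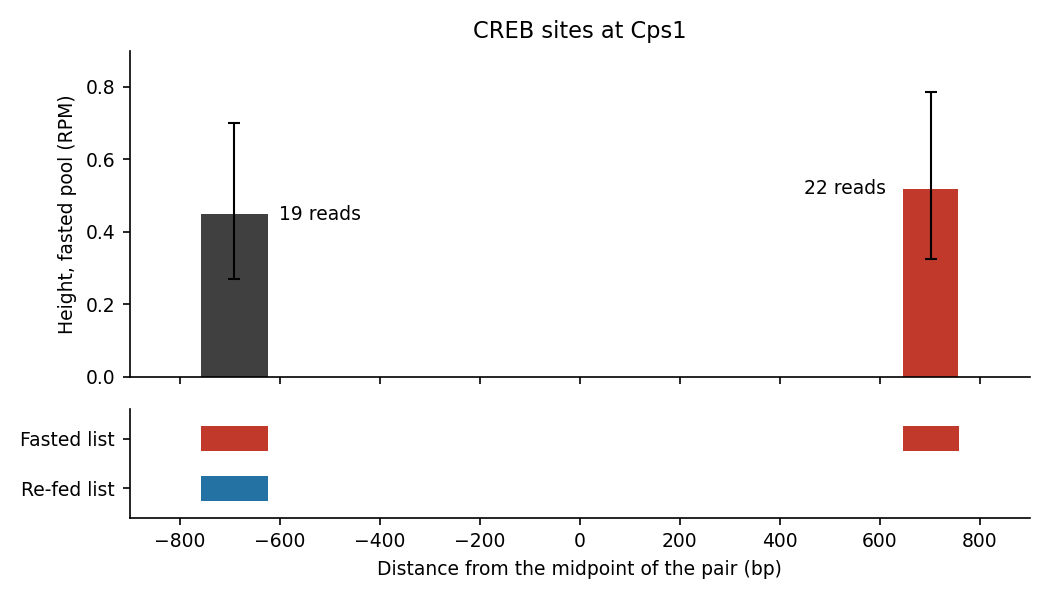
The 2 CREB sites at Cps1. Above, bars give the height in the fasted pool in RPM and the width of each site to scale, with lines for the exact 95% Poisson interval of its reads. Below, blocks mark the list or lists that hold the site. The x axis is the distance in bp from the midpoint of the pair. The intervals of the sites overlap widely, and only the site on the left is in the re-fed list.

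The heights of both lists were those of 1 pool of reads. All 4645 peaks that the lists share had the same interval and the same height in both, and every height was a whole number of steps of 0.0236 RPM, which makes 1 read of a pool of 42363292 reads. The read totals in the study's supplement place this pool with the fasted livers. The first Cps1 site had a height of 0.449 RPM, or 19 reads, with an exact Poisson interval of 0.270 to 0.700 RPM. The second Cps1 site was slightly higher, at 0.519 RPM or 22 reads, with an interval of 0.325 to 0.786 RPM. The ratio of the second to the first was 1.16 (exact 95% binomial interval 0.598 to 2.26), so the sites did not differ in the fasted pool beyond counting error. Such intervals take in counting error alone, because the reads carried no molecular tags and the pool has no replicate. They also treat a height as a plain count, although it is the largest stack within a peak that passed calling and a height threshold.

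CREB peaks at Cps1 were low among those listed. The median height of all merged sites was 0.708 RPM, 1.58 times that of the first Cps1 site and 1.36 times that of the second. The first site stood at the 10.9th percentile of all sites, with 690 sites lower and 260 of equal height, itself included. The second stood at the 23.2nd percentile, with 1583 sites lower. All sites include those with a re-fed call alone. Among peaks of the fasted list the first Cps1 site stood at the 5.39th percentile and the second at the 17.4th. Among the 4645 sites called in both conditions, whose median was 0.991 RPM, the first Cps1 site stood at the 3.83rd percentile. Among the 2190 sites with a fasted call alone, whose median was 0.567 RPM, the second stood at the 32.9th percentile. The first site was thus a low member of the shared group, whereas the second was closer to the middle of the fasted-only group. With so few reads the counting interval of the first site reaches from the 0.305th to the 49.8th percentile of all sites, and that of the second from the 1.17th to the 58.3rd.

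**Figure D2:**
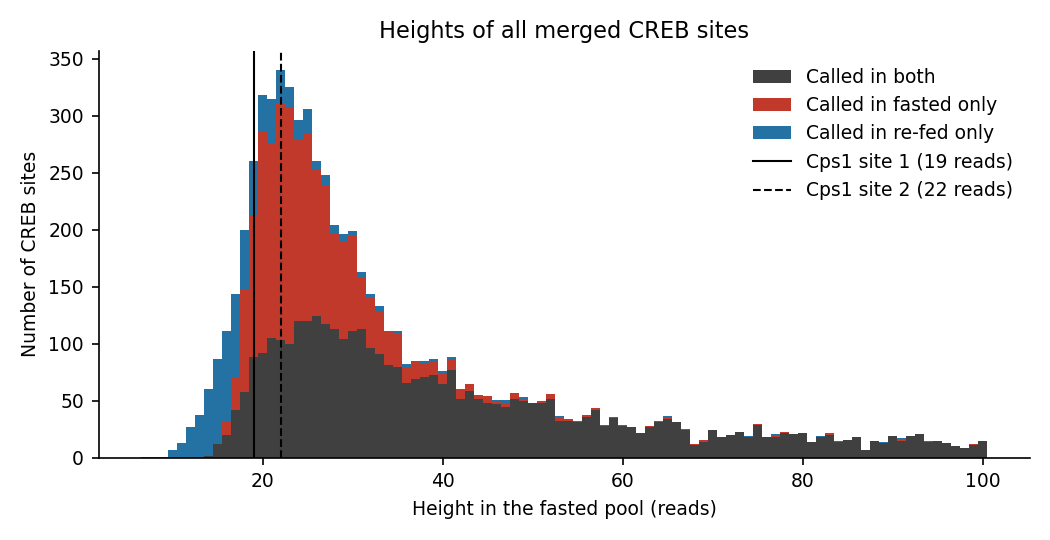
Heights of the merged CREB sites in the fasted pool. The x axis is the height in reads and the y axis the number of sites, stacked by call, and the 772 sites above 100 reads are not drawn. The lines at 19 and 22 reads are the Cps1 sites, and both fall on the low side of the distribution.

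Sites as low as those at Cps1 were often called in 1 condition only. Of the 260 sites with the height of the first Cps1 site, 48.1% had a fasted call alone, 18.1% a re-fed call alone, and 33.8% had both calls (Wilson interval 28.4% to 39.8%). Of the 340 sites with the height of the second Cps1 site, 30.3% had both calls and 60.9% a fasted call alone (Wilson interval 55.6% to 65.9%). The second Cps1 site therefore had the most frequent call of sites as high as itself, and the first did not. Sites matched on the fasted height leave the re-fed height aside. Among the 201 sites nearest to each Cps1 site by the number in the peak name, taken as an order by the mean height of both conditions, 20.4% had both calls for the first site (Wilson interval 15.4% to 26.5%) and 11.9% for the second (Wilson interval 8.16% to 17.2%). A fasted call alone was the most frequent in either set, at 61.7%, and a re-fed call alone made up 17.9% and 26.4%. Of all sites below the median height 35.1% had both calls, against 87.8% of those at or above it.

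**Figure D3:**
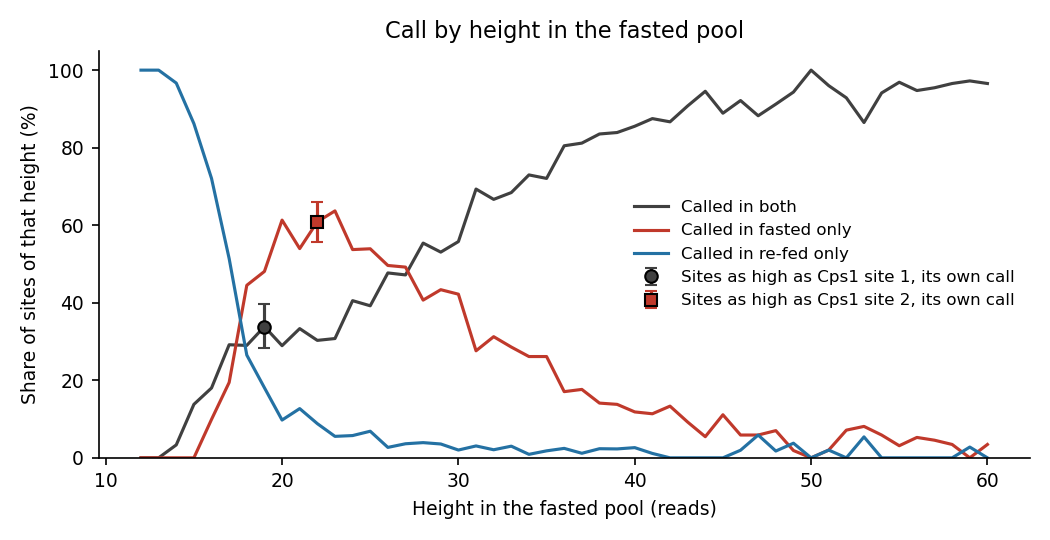
Call of the merged CREB sites by height in the fasted pool. The x axis is the height in reads, and the y axis is the percentage of the sites of that height with each call, for heights of 12 to 60 reads with at least 27 sites each. Symbols with 95% Wilson intervals mark the share that had the same call as the Cps1 site of that height, 33.8% for the first and 60.9% for the second.

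The deposited lists give no re-fed height, but the names of the peaks limit it. Each name carries a number. In the rows of the study's peak table that were read, which are a part of it, these numbers run downward by the mean of the pooled heights of the conditions, and the limits given here rest on this order holding for all sites. The first Cps1 site was number 6119 and the second number 6544 of 7547. The site with the lower fasted height thus had the higher mean. It follows that the re-fed height of the first site was greater than that of the second by at least 0.0708 RPM. The fasted order of the sites rests on 3 reads, within counting error, and this limit does not include the counting error of the re-fed pool. A site with a later number has no greater mean, and its own fasted height sets a floor to that mean even if it had no re-fed reads. On this basis the re-fed height was at least 0.260 RPM at the first Cps1 site. There the fasted height was at most 1.73 times the re-fed height. At the second site the re-fed height was at least 0.118 RPM, and the fasted height at most 4.4 times as high. If the threshold of 0.35 RPM on the average height was set on this mean, these limits become 0.181 RPM and 2.87. Some re-fed reads are thus implied at the second site as well, although no re-fed peak was listed there. These limits come from the pooled heights and carry no error between mice.

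The width of the first site shows how the calls of the conditions lay to each other. Every peak called only in the fasted livers was 111 bp wide and every peak called only in the re-fed livers 109 bp, while shared peaks ranged from 111 to 219 bp, which is the range open to 2 such peaks that overlap by at least 1 bp. If the first Cps1 site joins a fasted and a re-fed call of these widths, its 134 bp leave an overlap of 86 bp and put their centers 24 bp apart. Of the 4645 shared sites, 24.0% were wider, and the median offset was 13 bp over those wider than 1 fasted call. The second Cps1 site had the fixed width of 111 bp.

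The centers of the Cps1 sites were 1392.5 bp apart, and 1270 bp of sequence lay between their edges. A neighbor at this distance or nearer is not rare in the lists. Of all merged sites, 14.7% had another site at least as near (Wilson interval 13.9% to 15.5%), and on chromosome 1 the share was 14.7% as well. It was 11.8% for sites called in both conditions, 17.6% for those with a fasted call alone and 24.9% for those with a re-fed call alone. When sites no further apart than the Cps1 sites were grouped, 509 groups of exactly 2 sites were found, besides 29 larger ones. The median spacing of these 509 groups was 423.5 bp. The Cps1 pair, whose own spacing set the limit, was the widest of them. The most frequent kind, with 180 groups (35.4%), was that seen at Cps1, a site called in both conditions beside a site called only in the fasted livers. A further 134 groups (26.3%) had both sites called in both conditions.

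Within its kind, the Cps1 pair had the less common order of heights. In the 180 groups of a shared and a fasted-only site, the fasted-only site was the higher in the fasted pool in 23 (12.8%, Wilson interval 8.67% to 18.4%), and the Cps1 pair was 1 of these. The shared sites of these groups had a median height of 0.932 RPM and the fasted-only sites 0.614 RPM, both above the Cps1 sites. The Cps1 pair was also among the lowest of all pairs. In only 31 of the 509 groups was the higher site lower than the 0.519 RPM of the second Cps1 site, and the median of the higher sites was 0.897 RPM. As the difference between the Cps1 sites was 3 reads, their order in the fasted pool is within counting error.

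The Cps1 pair stood alone on its stretch of chromosome 1. The nearest other CREB site on the lower side lies from 65113497 to 65113607, 1.94 Mb away. It was called only in the fasted livers and had a height of 0.803 RPM. On the upper side the nearest site lies from 71586477 to 71586626, 4.54 Mb away, was called in both conditions and had a height of 1.79 RPM. The pair was thus the only CREB binding listed between 2 sites 6.47 Mb apart. The median distance between neighboring sites on chromosome 1 was 126 kb, and 25 of its 422 gaps were at least as wide as that on the lower side of Cps1 and 7 as wide as that on the upper side. Among all 509 groups of 2 sites, none of the other 508 was as far from its nearest other site, and their median distance was 40.9 kb. The next most distant group was 1.66 Mb from other sites. With groups formed up to 10000 bp, however, the Cps1 pair was not the most distant, as another group of 2 sites was 2.37 Mb from others. Of all 6976 groups and single sites, 34 lay at least as far away as the Cps1 pair, and 132 lay at least 1 Mb away, of which 6 held 2 or more sites. The distance is a description with no test, and the rule that took the Cps1 sites, by gene region, did not use it.

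**Figure D4:**
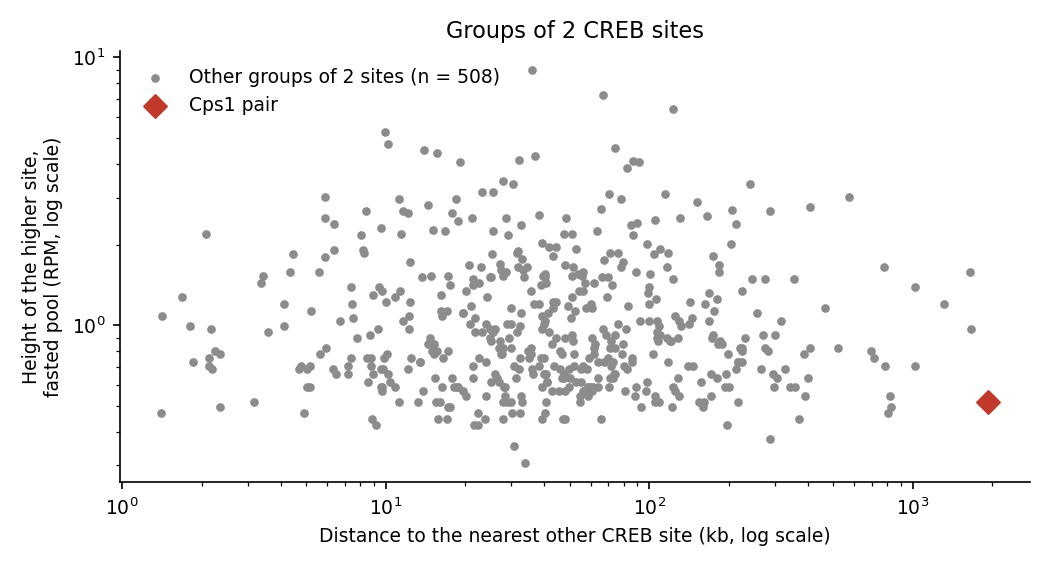
Isolation of the 509 groups of 2 CREB sites no further apart than the Cps1 sites. The x axis is the distance from a group to the nearest other site in kb and the y axis the fasted height of its higher site in RPM, both on log scales. The Cps1 pair, at 1.94 Mb and 0.519 RPM, is the group farthest to the right and lies low.

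Cut into windows of 200 kb, the width of the region, chromosome 1 held 984 windows up to its last peak. Of these, 74.4% held no CREB site. Since only a region that holds CREB sites could be described, the Cps1 region compares with the 252 windows that held any. Of these, 40.1% held 2 or more, as the Cps1 window did. The distance of the sites from the Cps1 start and their DNA sequence, including any cAMP response element, were not analysed here, as neither a genome nor gene models of mm8 were used.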

How the data were processed

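CREB ChIP-seq libraries of 5 fasted and 5 re-fed livers were considered. GR and CEBPB libraries were not analysed here. The authors mapped reads to mm8 with Eland, removed redundant reads per replicate, pooled the replicates, called peaks with HOMER 3.0 at a 5% FDR, required a call in every pool of 4 livers, and applied a threshold of 0.35 RPM to the average height. The deposited heights are in RPM, from reads extended to 108 bp.

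Peaks of the lists sharing at least 1 bp were merged, and coordinates were read as inclusive at both ends. Distances were taken between centers. Percentiles are mid-ranks. Heights were turned into reads by the common step of the values. Each depth-based interval is at 95% (exact Poisson, exact binomial or Wilson), and sites are not replicates of a liver. The study's supplementary peak table also holds heights of single mice and of the re-fed livers. Its heights of single mice were not analysed here, and no test across mice was made. The pool behind the heights and the order of the peak numbers were read by hand from the supplement, the latter from its pooled heights, and the limits on re-fed heights rest on that reading. The code for merging, neighbors, read steps and limits was run on simulated data. There the peak numbers followed the mean height by construction, so that order itself was not tested. The members and comparisons were chosen with earlier results of these data known. The limits on re-fed heights and the isolation of the pair were worked out after seeing the data. The work was done in Python 3.11.15 (scipy 1.17.1, pandas 2.3.3, numpy 2.4.6), with plots by matplotlib 3.10.9.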

Additional observations from a re-analysis of the deposited data

How the results depend on the processing

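No paired analysis was possible because the fasted and re-fed mice are different animals and the deposited lists give pooled heights only. A comparison across mice, or one leaving out a mouse, from the heights in the study's supplement was not made here. The calls were the same under other overlap rules, and the number of sites under other widths of the region. The ratio of the heights was the same with reads in place of RPM. These checks could not have come out otherwise. Shared peaks have the same interval in both lists, and the Cps1 sites lie 1270 bp apart, beyond the 500 bp tried for joining peaks. The nearest other site is 1.94 Mb away, and reads are a fixed multiple of RPM. When peaks below the median of their own list were dropped, 0 Cps1 sites remained, and hence 0 called in both lists, since both lie below those medians. Under that filter 7.44% of sites had a neighbor as near as the Cps1 sites, and this share was 11.6% among peaks of the fasted list and 8.57% among those of the re-fed list, where fewer sites are left to be neighbors. With the threshold on the average height taken as one on the mean of the pooled heights, the lowest re-fed height that the peak numbers allow at the second Cps1 site was 0.181 RPM in place of 0.118 RPM, and that at the first was the same. With groups formed up to 10000 bp, 2 groups of 2 or more sites, the Cps1 pair included, lay at least as far from other sites as the pair. The other group was farther, at 2.37 Mb among all merged sites and 4.69 Mb in the fasted list. With groups up to 2000 or 5000 bp, the Cps1 pair was the only 1. Heights of 19 and 22 reads limit what can be said of either site.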
